A study of Homo sapiens with 12 samples.

Results

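The beta-tubulin genes of 2 human prostate cancer cell lines were followed after transfection with siRNA against GATA2 or with a control siRNA. A probe belonged to the group when its gene symbol was TUBB, or TUBB followed by a number and an optional letter, and when its detection p-value was under 0.05 on 3 or more of 12 arrays. The probe annotation listed 8 such probes and all 8 passed, so that 8 of 22539 kept probes and 6 of 11933 genes were described: TUBB, TUBB2A, TUBB3, TUBB4A, TUBB4B and TUBB6. TUBB and TUBB6 had 2 probes each. Detection chose the members and is given as a description: 6 probes were detected on all 12 arrays, whereas the 2 TUBB6 probes were detected on 7 and 6 arrays. No listed beta-tubulin probe fell outside the detection rule, and the one with the fewest detections was ILMN_1702636 of TUBB6. The annotation names only probes that are also in the authors' smaller set of processed values, so undetected beta-tubulin probes may be unnamed here. The probe annotation used here lists none of TUBB1, TUBB2B or TUBB8, which were not analysed here.

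The cells were LNCaP-abl (called Abl in the labels), kept in medium with 10% charcoal-stripped serum, and an enzalutamide-resistant LNCaP line (MDVR), kept in 10% fetal bovine serum. LNCaP is a human prostate adenocarcinoma line, and enzalutamide is an androgen receptor antagonist. MDVR cells had been selected from parental LNCaP cells in 25 microM enzalutamide and were held in 10 microM of it during the experiments, so drug, serum and line cannot be told apart in a comparison of MDVR with Abl. Each line received 25 nM of 1 Stealth siRNA against GATA2 (siGATA2) or a non-targeting control (siNT), and total RNA was taken 72 h later. This gave 4 groups of 3 Illumina arrays: Abl siNT, Abl siGATA2, MDVR siNT and MDVR siGATA2. GATA2 is a zinc-finger transcription factor that acts with the androgen receptor in prostate cells.

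Beta-tubulin pairs with alpha-tubulin, and these heterodimers polymerise into microtubules, which form the mitotic spindle and the tracks for transport in the cell. Human cells hold several beta-tubulin isotypes that differ mainly in their acidic carboxy-terminal tails. TUBB encodes class I, which most tissues use, TUBB2A class IIa, TUBB3 the class III isotype of neurons, TUBB4A class IVa of brain, TUBB4B the widely expressed class IVb, and TUBB6 class V. Taxanes such as docetaxel, which is used to treat advanced prostate cancer, bind beta-tubulin in the microtubule and stabilise it, and the amount of TUBB3 has been studied widely as a correlate of taxane response. The labels name no taxane treatment, and the arrays measure mRNA, not tubulin protein.

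All levels below are normalized log2 intensities, so a difference of 1.00 is a doubling of the signal. They compare 1 probe between arrays and never 1 probe with another. The arrays detected between 19103 and 20513 of 47323 probes, and arrays of a group correlated at 0.989 to 0.992 across kept probes. The GATA2 probe was 0.41 lower in Abl siGATA2 than in Abl siNT (adjusted p = 0.0147), and in MDVR it differed by -0.18 (95% interval -0.43 to 0.06, adjusted p = 0.355, not called) with overlapping arrays, so a fall of GATA2 mRNA was not shown there. KRT8, KRT18, HOXB13, FOXA1 and EPCAM, markers of prostate luminal epithelium, were detected on all 12 arrays. KLK3, another of them, was detected in the MDVR siNT group only. None of the 6 fibroblast or 5 endothelial markers had a kept probe. Of 5 leukocyte markers LYZ alone was kept, at 4.95 to 6.57, and of 4 platelet markers PPBP alone, at 5.07 to 6.81. PPBP was called in 1 comparison, higher in MDVR than in Abl under siGATA2 (0.65, adjusted p = 0.0467).

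**Figure D1:**
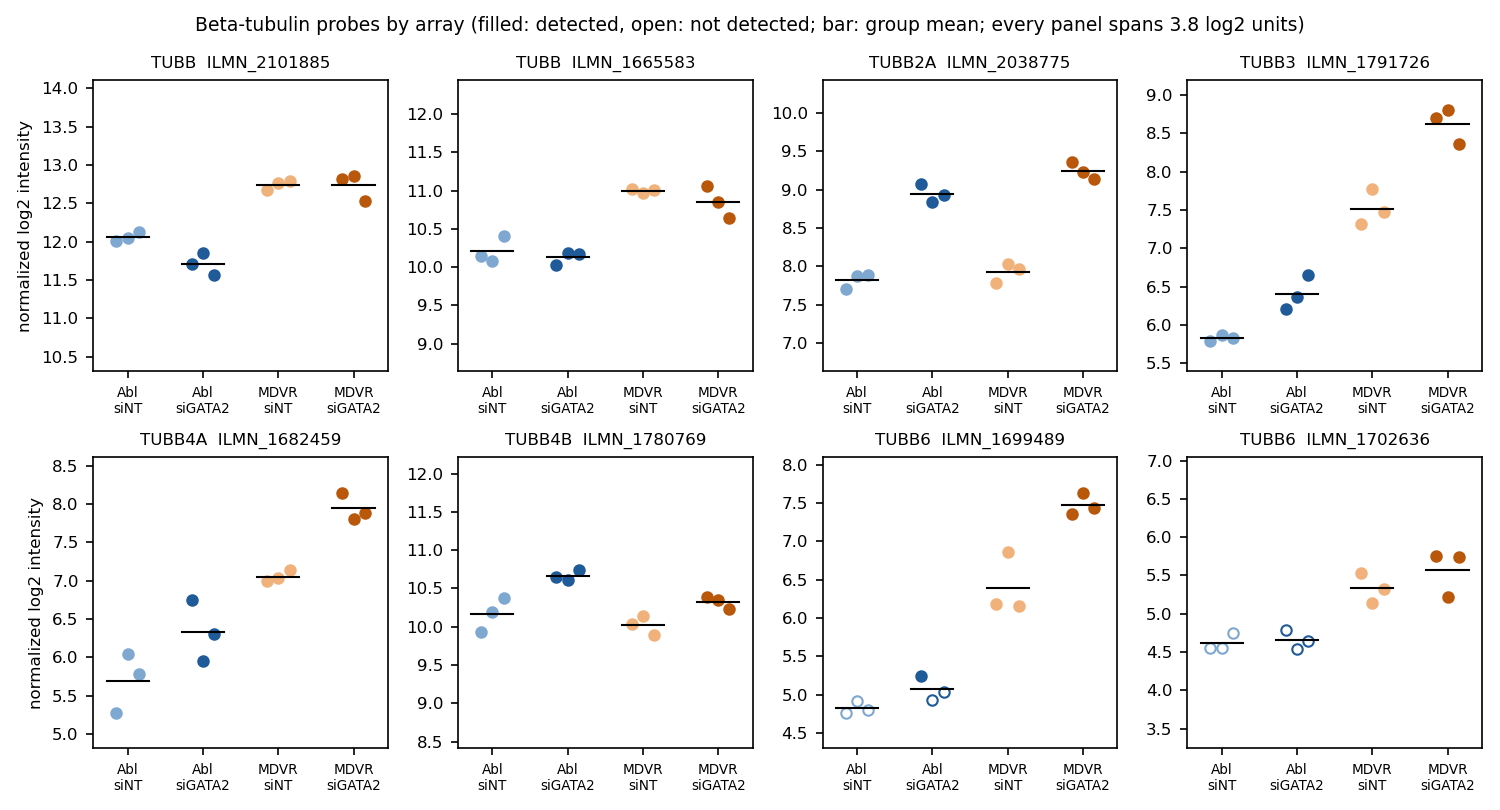
Normalized log2 intensity (vertical axis) of the 8 beta-tubulin probes, 1 panel a probe, on each of the 12 arrays by group (horizontal axis). Points are arrays and short lines are group means; TUBB2A is higher on every siGATA2 array of both lines, and the 4 groups of TUBB3 do not overlap.

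In Abl cells, 4 beta-tubulin isotypes rose after siGATA2 and 1 fell. TUBB2A rose 2.18-fold, TUBB4A 1.56-fold, TUBB3 1.49-fold and TUBB4B 1.41-fold, and TUBB fell by 0.35 on the log2 scale at 1 of its 2 probes. Of 6 probes tested, 4 were therefore higher, 1 was lower and 1 did not pass, a call being an adjusted p (Benjamini-Hochberg, limma) under 0.05. The arrays of the groups did not overlap for 4 of the 6, against 35.9% of all probes. Among all 22539 probes 22.1% were called in this comparison, 10.7% higher and 11.4% lower. In bulk RNA such as this, fewer cells of a kind and less RNA per cell cannot be told apart. In MDVR cells, 5 of 8 probes tested were higher after siGATA2, none was lower and 3 were not called, against 7.96% higher, 7.53% lower and 15.5% called in all. The median change of the tested beta-tubulin probes was 0.54 in Abl (6 probes) and 0.60 in MDVR (8 probes), while the median over all probes was 0.01 in Abl and -0.01 in MDVR. In MDVR the arrays did not overlap for 5 of the 8, against 30.8% of all probes. TUBB2A, TUBB3, TUBB4A and TUBB4B, 4 of the 6 probes tested in both lines, were higher in both, a pattern found for 4.26% of all probes.

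TUBB2A, the class IIa isotype that is abundant in brain, rose in both lines. Its levels were 7.70, 7.88 and 7.88 on the Abl siNT arrays and 9.07, 8.84 and 8.93 on the Abl siGATA2 arrays. In MDVR they were 7.79, 8.03 and 7.96 under siNT and 9.36, 9.24 and 9.14 under siGATA2. Every siGATA2 array lay above the siNT range of its line, and the siNT arrays of the 2 lines overlapped each other. The change was 1.12 (SE 0.11, 95% interval 0.90 to 1.35, adjusted p = 2.19e-07) in Abl and 1.32 (SE 0.11, 95% interval 1.09 to 1.54, 2.50-fold, adjusted p = 5.77e-08) in MDVR. Only 180 of 22539 probes (0.799%) in Abl and 73 (0.324%) in MDVR, TUBB2A included, rose by as much. TUBB2A stayed called in both lines under each of the 27 alternatives run, and the change was smaller, 0.71 in Abl and 0.87 in MDVR, in the authors' processed values.

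The stretch just before the RefSeq start of TUBB2A (GRCh38.p14, chr6:3157545-3157794, minus strand) is shown because the rise of this isotype was called in both lines under all 27 alternatives. That before TUBB4B (GRCh38.p14, chr9:137241037-137241286, plus strand), another isotype that rose in both lines and has 1 listed start, is set beside it. Both run 5′ to 3′ on the gene's strand, and capitals mark matches on either strand. The motifs searched were GATAA, a form of the core that GATA factors read, and CCAAT, the box bound by factor NF-Y. TGACGTCA, the cyclic AMP response element, and TATAA, the core of the TATA box, were searched as well.
TUBB2A: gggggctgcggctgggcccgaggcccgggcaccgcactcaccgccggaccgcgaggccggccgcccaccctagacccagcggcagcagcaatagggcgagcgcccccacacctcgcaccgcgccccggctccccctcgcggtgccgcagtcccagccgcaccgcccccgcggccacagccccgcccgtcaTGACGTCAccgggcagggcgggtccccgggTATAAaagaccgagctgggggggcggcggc
TUBB4B: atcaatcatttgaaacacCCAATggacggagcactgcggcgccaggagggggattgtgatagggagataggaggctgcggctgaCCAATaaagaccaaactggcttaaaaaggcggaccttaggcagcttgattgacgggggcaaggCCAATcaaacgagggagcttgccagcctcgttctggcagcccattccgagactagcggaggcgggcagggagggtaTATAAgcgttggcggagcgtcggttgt
The TUBB2A window holds 1 TGACGTCA 60 bases before the start, and 1 TATAA 30 bases before it. The TUBB4B window holds 3 CCAAT, at 232, 166 and 103 bases, and 1 TATAA at 27 bases. Of 35116 RefSeq windows of 250 bases, 1.65% hold TGACGTCA, 18.9% hold TATAA, 32% hold the CCAAT box and 20.4% hold the GATA core. The GATA core is in neither window. It occurs 2 times before 1 of the 2 listed starts of TUBB4A and 1 time before 1 of the 2 of TUBB6, and not in the windows of TUBB or TUBB3. These motifs were chosen after the windows had been read, and a match is only a run of letters.

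TUBB4B, the widely expressed class IVb isotype, moved by less than TUBB2A. Its levels were 9.93, 10.19 and 10.38 in Abl siNT and 10.65, 10.61 and 10.74 in Abl siGATA2. They were 10.04, 10.14 and 9.89 in MDVR siNT and 10.39, 10.35 and 10.23 in MDVR siGATA2. In neither line did the siGATA2 and siNT arrays overlap. The rise was 0.50 in Abl (SE 0.10, 95% interval 0.29 to 0.71, adjusted p = 0.00108) and 0.30 in MDVR (SE 0.10, 95% interval 0.09 to 0.51, 1.23-fold, adjusted p = 0.0498). The MDVR call lay at the threshold: the rise kept its direction, between 0.20 and 0.36, in all 27 alternatives and was not called in 17 of them. It was lost without Abl siNT replicate 2, without any of the 3 Abl siGATA2 arrays, without MDVR siNT replicate 2 or 4 and without MDVR siGATA2 replicate 1 or 2, with values between 0.23 and 0.31.

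TUBB3 is the class III isotype, made mainly by neurons and present in some carcinomas. On the Abl siNT arrays it stood at 5.79, 5.86 and 5.82, and on the Abl siGATA2 arrays at 6.21, 6.36 and 6.65. On the MDVR arrays it stood at 7.31, 7.77 and 7.47 under siNT and at 8.70, 8.81 and 8.36 under siGATA2. The 4 groups followed each other without overlap in the order Abl siNT, Abl siGATA2, MDVR siNT, MDVR siGATA2. After siGATA2 TUBB3 rose by 0.58 in Abl (SE 0.16, 95% interval 0.24 to 0.91, adjusted p = 0.0123) and by 1.10 in MDVR (SE 0.16, 95% interval 0.77 to 1.44, 2.15-fold, adjusted p = 6.99e-05). The Abl call was lost in 6 of 27 alternatives. Among them were leaving out Abl siGATA2 replicate 4 (0.46), no background correction (0.23) and the authors' processed values (0.15). In the authors' processed values the MDVR rise was 0.63 and still called. Other neuronal and neuroendocrine genes were set beside it: CHGA, ENO2, NCAM1 and INSM1 were 4 of 8 with a kept probe, and none was called higher after siGATA2 in either line. NCAM1 differed by 0.36 in Abl (adjusted p = 0.285), with arrays that did not overlap. The summed intensity of the 4 was 992 to 1169 in Abl siNT, 982 to 1010 in Abl siGATA2, 647 to 855 in MDVR siNT and 412 to 544 in MDVR siGATA2, most of it from ENO2, whose log2 level was 9.75 to 10.03 in Abl siNT. ENO2 fell by 0.72 in MDVR (adjusted p = 0.000494). CHGA was detected on none of the Abl siNT and MDVR siGATA2 arrays.

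TUBB4A, the class IVa isotype of myelinating glia and neurons, stood at 5.28, 6.04 and 5.78 in Abl siNT and at 6.75, 5.95 and 6.30 in Abl siGATA2. In MDVR it stood at 6.99, 7.03 and 7.14 under siNT and at 8.15, 7.81 and 7.89 under siGATA2. The Abl groups overlapped, because Abl siGATA2 replicate 3 lay below the highest siNT array, and the MDVR groups did not. The rise was 0.64 in Abl (SE 0.20, 95% interval 0.21 to 1.06, adjusted p = 0.0282) and 0.89 in MDVR (SE 0.20, 95% interval 0.47 to 1.32, 1.86-fold, adjusted p = 0.00442). In Abl the call was lost in 10 of 27 alternatives, among them leaving out Abl siNT replicate 1 (0.43), Abl siGATA2 replicate 2 (0.43) or Abl siGATA2 replicate 4 (0.66). In the authors' processed values the change was 0.16 in Abl, not called, and 0.42 in MDVR.

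TUBB6, the class V isotype, was near background in Abl cells. At ILMN_1699489 the Abl arrays read 4.76, 4.92 and 4.80 with siNT, none of them detected, and 5.25, 4.93 and 5.03 with siGATA2, where 1 of 3 was detected. The MDVR arrays, all detected, read 6.18, 6.86 and 6.15 with siNT and 7.35, 7.63 and 7.44 with siGATA2. Within MDVR the 2 groups did not overlap, and the rise was 1.08 (SE 0.19, 95% interval 0.68 to 1.48, 2.11-fold, adjusted p = 0.000541), or 0.40 in the authors' processed values. The second probe, ILMN_1702636, did not show a call: it read 5.53, 5.14 and 5.32 in MDVR siNT and 5.75, 5.22 and 5.73 in MDVR siGATA2, a change of 0.24 (SE 0.19, adjusted p = 0.469) with overlapping arrays. It lay closer to background, between 4.53 and 4.78 on the Abl arrays, none of them detected. Both probes passed the detection rule through the MDVR arrays, so no test was made between the lines. None was made within Abl, because neither probe was detected on any Abl siNT array.

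TUBB, the class I isotype of most dividing cells, was read by 2 probes, 1 of which was called in Abl. At ILMN_2101885 the levels were 12.00, 12.05 and 12.13 in Abl siNT and 11.71, 11.85 and 11.56 in Abl siGATA2, with no overlap, a change of -0.35 (SE 0.09, 95% interval -0.54 to -0.17, adjusted p = 0.00633). At ILMN_1665583 they were 10.15, 10.08 and 10.40 against 10.03, 10.19 and 10.17, overlapping, a change of -0.08 (SE 0.10, 95% interval -0.29 to 0.13, adjusted p = 0.638). The call of TUBB in Abl thus rests on 1 probe and was lost in 2 of 27 alternatives, and the difference between the probes was not tested.
In MDVR neither probe was called. ILMN_2101885 read 12.67, 12.76 and 12.79 with siNT against 12.82, 12.86 and 12.53 with siGATA2, a difference of -0.0035 with a 95% interval of -0.19 to 0.18 (adjusted p = 0.988). ILMN_1665583 read 11.02, 10.97 and 11.00 against 11.06, 10.86 and 10.64, a difference of -0.14 with a 95% interval of -0.35 to 0.07 (adjusted p = 0.398).

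Genes of dividing cells moved with the same contrast and are given beside TUBB and the other isotypes. All 8 markers of dividing cells (MKI67, TOP2A, CCNB1, CDC20, BUB1, PLK1, AURKB and CENPF) had a kept probe, and their summed intensity was 4033 to 4501 in Abl siNT, 1016 to 1176 in Abl siGATA2, 5966 to 6207 in MDVR siNT and 4430 to 4752 in MDVR siGATA2. After siGATA2 7 of the 8 fell in Abl, where 28.2% of all genes were called, and 6 of the 8 in MDVR, where 19.6% were called. Those shares count calls in both directions. MKI67, among the 6, was detected on all 3 MDVR siNT arrays and on no MDVR siGATA2 array. It passed the detection rule through siNT arrays alone, which fixed the direction of its change. Its fall in MDVR therefore adds nothing to that count. The difference between the lines was called for 7 of the 8, against 4.96% of genes. Their part in the beta-tubulin results was not tested.

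**Figure D2:**
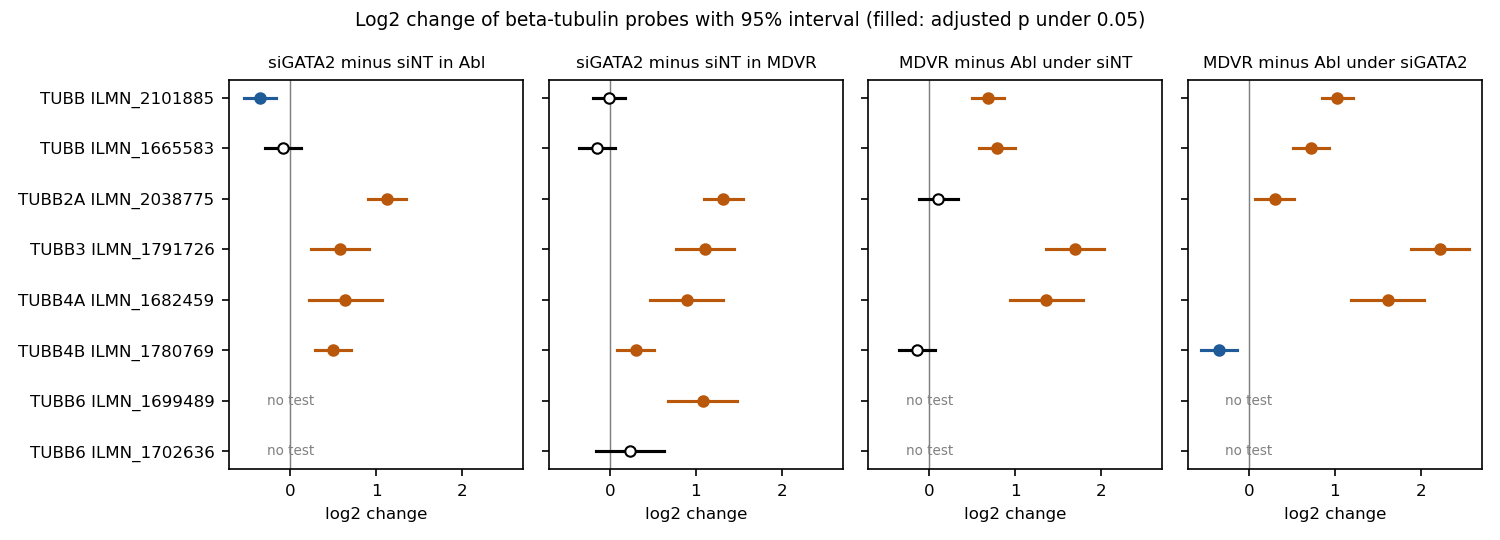
Difference in normalized log2 intensity (horizontal axis) for each beta-tubulin probe in the comparisons named in the panels, with points for the estimate and bars for its 95% interval. The TUBB2A rise stands clear of 0 in both lines, and the interval of TUBB at ILMN_2101885 lies below 0 in Abl and spans 0 in MDVR.

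Whether the response to siGATA2 differed between the lines was tested as the MDVR change minus the Abl change. None of the 6 beta-tubulin probes tested passed in limma, where 3.88% of all probes did, and 2 had an unadjusted p under 0.05. For TUBB3 the MDVR rise was larger by 0.52 (95% interval 0.05 to 1.00, adjusted p = 0.228), and for TUBB at ILMN_2101885 the difference was 0.35 (95% interval 0.09 to 0.61, adjusted p = 0.137). The TUBB3 difference passed without background correction (0.55) and in the authors' processed values (0.48), and the TUBB difference passed without MDVR siGATA2 replicate 3 (0.45). The intervals of the other tested probes spanned 0: TUBB2A differed by 0.19 (95% interval -0.12 to 0.51), TUBB4A by 0.26 (95% interval -0.34 to 0.86), TUBB4B by -0.20 (95% interval -0.50 to 0.10) and the second TUBB probe by -0.06 (95% interval -0.36 to 0.23). Intervals of this width do not show that the lines responded alike.

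MDVR cells had more TUBB, TUBB3 and TUBB4A signal than Abl cells in the control condition. Under siNT, 4 of 6 probes tested were higher in MDVR, none was lower and 2 were not called, against 41.1% of all probes called, 20.9% higher and 20.2% lower. TUBB3 was higher by 1.69 (SE 0.16, 95% interval 1.36 to 2.03, 3.23-fold, adjusted p = 3.74e-08) and TUBB4A by 1.36 (SE 0.20, 95% interval 0.93 to 1.78, 2.56-fold, adjusted p = 1.61e-05). Both TUBB probes were higher, by 0.68 (SE 0.09, 1.60-fold, adjusted p = 2.87e-06) and 0.79 (SE 0.10, 1.73-fold, adjusted p = 2.23e-06). The arrays of the lines did not overlap for 4 of the 6 probes tested, those just named, against 48.8% of all probes. TUBB2A and TUBB4B were not called: TUBB2A differed by 0.10 (95% interval -0.12 to 0.33, adjusted p = 0.482) and TUBB4B by -0.14 (95% interval -0.35 to 0.07, adjusted p = 0.282), though TUBB4B was called lower without Abl siNT replicate 1 (-0.26). In the authors' processed values the excess of TUBB3 in MDVR was 0.58 and that of TUBB4A 0.40, both still called.

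TUBB6 also read higher in MDVR, as far as its bound allows. ILMN_1699489 was at least 2.45-fold higher in MDVR siNT than in Abl siNT, and ILMN_1702636 at least 1.17-fold, taking as the Abl level the higher of the probe's own signal and the dimmest signal detected on each array. Under siGATA2, the mean of ILMN_1699489 was 7.48 in MDVR and 5.07 in Abl, where 1 of 3 arrays was detected, and no fold is given. At ILMN_1702636 MDVR was at least 1.39-fold higher. These comparisons have no test, since the detection rule fixed their direction.

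Under siGATA2 MDVR cells again had more TUBB, TUBB3 and TUBB4A signal than Abl cells. All 6 probes tested were called, 5 higher and 1 lower in MDVR, against 45.2% of all probes called, 23.8% higher and 21.5% lower. TUBB3 was 4.65-fold higher in MDVR (2.22, SE 0.16, adjusted p = 5.87e-10), TUBB4A 3.06-fold (1.61, SE 0.20, adjusted p = 1.61e-06) and TUBB at ILMN_2101885 2.04-fold (1.03, SE 0.09, adjusted p = 8.13e-09). In the authors' processed values the TUBB3 and TUBB4A differences were 1.06 and 0.66, both still called. The second TUBB probe was higher by 0.72 (SE 0.10, adjusted p = 5.59e-06). TUBB2A was higher by 0.30 (SE 0.11, adjusted p = 0.0285), a call lost in 7 of 26 alternatives, among them leaving out Abl siGATA2 replicate 3 or 4 or MDVR siGATA2 replicate 1 or 2. TUBB4B was lower in MDVR, with a difference of -0.34 (SE 0.10, adjusted p = 0.00877), a call lost in 3 of 26 alternatives, among them median scaling (-0.22). The siNT and siGATA2 comparisons of the lines use different arrays, whereas each line's siGATA2 comparison shares its arrays with both. Median scaling in place of quantile normalization moved the median of all probes to 0.12 under siNT and 0.10 under siGATA2, and the share of calls that were higher in MDVR from 50.9% to 63.9% and from 52.6% to 63.6%.

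**Figure D3:**
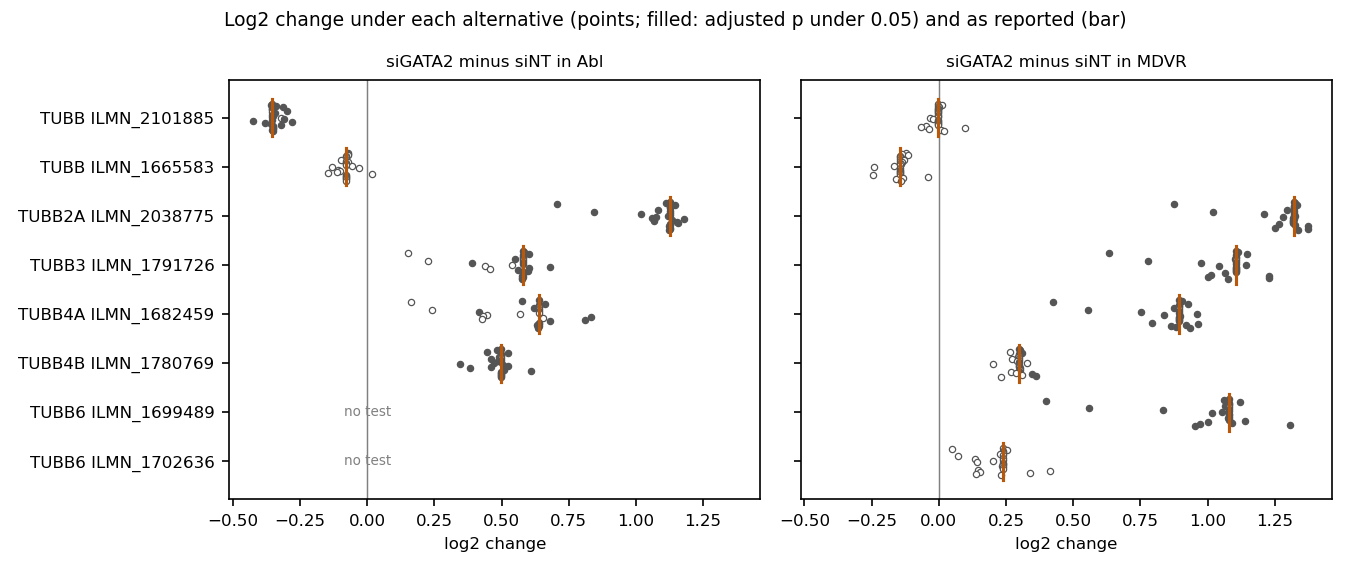
Change in normalized log2 intensity (horizontal axis) of the beta-tubulin probes under each processing alternative, with filled points for called and open points for not called. TUBB2A stays called throughout, while the TUBB4B call in MDVR and the TUBB3 and TUBB4A calls in Abl come and go with their direction kept.

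Partners of beta-tubulin were read as 7 lists, each gene by its brightest kept probe among 11933 genes. Of all genes, 28.2% were called after siGATA2 in Abl and 19.6% in MDVR. Of 9 alpha-tubulins, the other member of the heterodimer, 6 were measured. In Abl 1 of them fell, TUBA3D by 0.42 (adjusted p = 0.0132), and in MDVR 1 rose, TUBA4A by 0.38 (adjusted p = 0.0163). The median change of the alpha-tubulins was -0.08 in Abl and 0.09 in MDVR, and no test of alpha- against beta-tubulins was made. Of 13 genes of the gamma-tubulin ring and the minor tubulins, which nucleate microtubules and build centrioles, 12 were measured. In Abl TUBG2 rose by 0.65 and TUBGCP4 fell by 0.78, and in MDVR none was called in limma, with 2 at an unadjusted p under 0.05.

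Tubulin folds on prefoldin, the CCT chaperonin and the tubulin cofactors, and all 20 genes of that list were measured. In Abl 4 rose and 4 fell, against 28.2% of all genes called. PFDN4, a prefoldin subunit, rose by 0.66 and TBCD, a cofactor that binds beta-tubulin, by 0.39. The chaperonin subunits CCT8 and CCT7 changed by -0.38 and -0.34. In MDVR 3 rose and 1 fell, against 19.6% of all genes called. PFDN4 was up by 1.28 there, TBCE by 0.47 and VBP1 by 0.33, and CCT5 was at -0.46. Cells also degrade tubulin mRNA while it is translated when free tubulin is plentiful, through TTC5, which binds the nascent tubulin chain. TTC5 fell by 0.46 in Abl (adjusted p = 0.0091), the 1 call among 3 autoregulation genes there. In MDVR none of the 3 was called in limma, with 2 at an unadjusted p under 0.05.

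Among microtubule stabilisers and binding proteins, 18 of 21 were measured, with 2 higher and 3 lower after siGATA2 in each line. The shares of all genes called were 28.2% in Abl and 19.6% in MDVR. MAPRE1, which tracks growing plus ends, fell by 1.14 in Abl and by 1.04 in MDVR, and the polymerase CKAP5 fell by 0.57 and 0.27. MAP1LC3B, a light chain that also marks autophagosomes, rose by 0.66 and 0.49. CLIP2 fell by 0.64 in Abl, and CLIP1, a plus-end linker protein, rose by 0.33 in MDVR. Of 14 destabilising and severing proteins 9 were measured, and 4 fell in Abl: the kinesins KIF2C (-1.77) and KIF18A (-0.96), STMN1, which sequesters tubulin dimers (-0.95), and FIGNL1 (-0.46). In MDVR none of the 9 was called in limma, with 2 at an unadjusted p under 0.05. Over the 7 lists the difference between the lines passed for 4 genes, KIF2C (1.48), STMN1 (1.06), SVBP (0.60) and CLIP1 (0.44), MDVR minus Abl. These were 2 of 9 destabilisers, 1 of 15 modifying enzymes and 1 of 18 stabilisers, against 4.96% of all genes. The other lists had no such call. KIF2C, KIF18A and STMN1 are also genes of dividing cells, whose markers fell in the same contrast, and their part was not tested.
Of 17 tubulin-modifying enzymes 15 were measured. TTL, the ligase that puts tyrosine back on alpha-tubulin, rose by 0.65 in Abl, SVBP, a partner of the enzymes that remove it, fell by 0.46 there, and MATCAP1, another such enzyme, rose by 0.55 in MDVR.

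Between the lines under siNT, where 48.9% of genes were called, the lists held calls in both directions. Of the 18 stabilisers and binding proteins 3 were higher in MDVR and 4 lower, with MAPT at 1.55, MAP7D1 at -0.88, MAP1B at 1.84 and MAP1LC3B at 0.63. Of the 9 destabilisers 4 were higher and 1 lower, with STMN3 at 1.60, KIF2C at 0.67, STMN1 at 0.59 and KATNA1 at -0.44. Of the 15 modifying enzymes 7 were higher and 2 lower, with SVBP at 0.89, the alpha-tubulin acetyltransferase ATAT1 at 1.40, AGBL5 at 0.86 and the deacetylase HDAC6 at 0.74. The folding list had 5 higher and 4 lower of 20, the gamma-tubulin list 3 higher and 3 lower of 12, and the autoregulation list 1 lower of 3. None of the 6 alpha-tubulins was called in limma, with 1 at an unadjusted p under 0.05. Beside the higher TUBB3, the neuronal marker ENO2 was lower in MDVR, at -0.66, and CHGA (0.34) and INSM1 (0.51) were not called. NCAM1 differed by -0.91. It was detected on 3 Abl siNT arrays and 1 MDVR siNT array, and no call is given because it passed the detection rule through Abl. The calls of the 7 lists, here and after siGATA2, were not screened in this way.

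**Figure D4:**
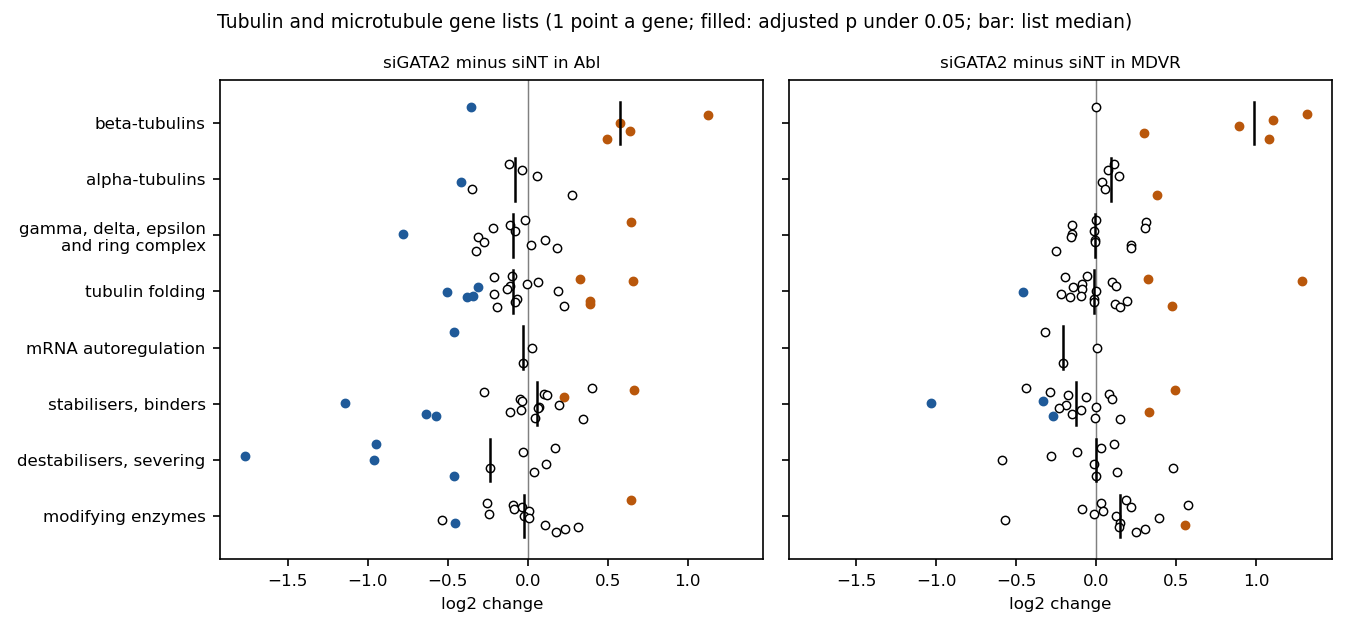
Change in normalized log2 intensity (horizontal axis) after siGATA2 in each line for the beta-tubulins and each partner list (rows), with 1 point a gene read by its brightest probe, filled where called, and a bar at the list median. The points of the partner lists lie on both sides of 0, with KIF2C the lowest of the destabilisers in Abl.

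Genes whose profile lay nearest to an isotype's were found as the root mean square distance between centred log2 profiles over the 12 arrays, as a description. For TUBB2A, whose own spread was 0.63, they were SAT1, TP53INP2 and SLC50A1, at 0.14, 0.15 and 0.15. For TUBB3, with a spread of 1.08, they were FAM43A, NKD2 and NMNAT2, at 0.24, 0.24 and 0.25. The nearest profiles to TUBB4A were TTYH2, CUZD1 and SLC29A4, those to TUBB4B were SDF4, DCTN1 and YIF1B, and those to TUBB6 at ILMN_1699489 were RND3, CARNS1 and FAM43A. For TUBB they were NUDT14, TCTN1 and PIH1D1 at ILMN_2101885 and GAMT, BCKDK and MAD2L1BP at ILMN_1665583, so the 2 probes shared no neighbour among the nearest 3. FAM43A was near both TUBB3 and TUBB6.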

How the data were processed

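RNA of 12 samples was measured on Illumina BeadChip arrays, 1 array a sample and 3 a group. The authors deposited a non-normalized table of 47323 probes with an intensity on a linear scale, whose values show no background subtraction or normalization, and with a detection p-value whose steps correspond to 770 negative controls. Processed log2 values for 23043 probes, deposited beside it, served as an alternative. Per the submitters' processing notes lumi was used; the sources used here give neither its version nor its settings.

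From the intensities, background was corrected with limma 3.58.1 (R 4.3.3) by normexp with an offset of 16, with the negative-control level inferred from the detection p-values, and arrays were quantile normalized. The detection rule (p under 0.05 on 3 or more arrays) left 22539 probes. A platform annotation gave symbols, listing 16978 probes, 16973 of them with 1 symbol and 5 with several. All of them are also in the authors' processed table, and a probe it does not list is unnamed here. For lists, a gene was read by its brightest kept probe. The 4 group means were fitted to 12 arrays (8 residual degrees of freedom) with lmFit and eBayes with a trend. Calls were made at an adjusted p (Benjamini-Hochberg over all kept probes) under 0.05, and intervals are 95% intervals. A bound for TUBB6 compares the bright group's mean with, on each dim array, the higher of the probe's signal and the lowest detected signal.

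The replicates of a group are not said to be separate cultures, so the p-values may measure technical spread alone, and the number of arrays limits the precision. Promoter windows are RefSeq's (GRCh38.p14). All 8 beta-tubulin probes were named with their values, up to 4 genes of a list, those with the smallest adjusted p in the comparison, and the 3 nearest profiles. The members, the lists and the motifs were chosen with earlier results of these data known, so a pattern already seen in them is not independent evidence. The fit was tested on simulated data. Alternatives changed the background correction, the normalization, the detection filter, the source of the values, the moderation, the arrays fitted and a replicate block.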

Additional observations from a re-analysis of the deposited data

How the results depend on the processing

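No beta-tubulin change that was called changed sign under any alternative run. Of 840 recomputed results, 776 kept their direction and their side of the threshold, 8 that were never called changed sign, 52 kept their direction and lost the call, and 4 gained one. The count of called probes after siGATA2 in Abl, 5 as reported, was 3 without background correction, 3 in the authors' processed values and 1 against a minimum fold of 1.5. Against that minimum fold the count was 1 in MDVR, 2 between the lines under siNT and 3 under siGATA2. The difference between the lines, with 0 calls as reported, had 1 without background correction and 1 in the authors' processed values, TUBB3 in both. Leaving out 1 array at a time gave 3 to 5 calls in Abl (3 without Abl siGATA2 replicate 4), 4 to 5 in MDVR, 0 to 1 for the difference, 4 to 5 between the lines under siNT and 5 to 6 under siGATA2. The replicate numbers were not shown to pair the samples: the deviations of 14 same-numbered pairs correlated at -0.17 to 0.11, and 1 was over 0.1. With the replicate number as a block across the 4 groups 2 probes were called in Abl, and with a block within each line 3. That fit within lines gives no value between lines, the fit of 2 groups alone gives none for the difference, and 1 probe a gene leaves out ILMN_1665583 and ILMN_1702636. Without background correction the rise in Abl was 0.23 for TUBB3, against 0.58 as reported, and 0.24 for TUBB4A, against 0.64. The cause of the calls lost without it and in the authors' processed values was not tested.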
